A study of Mus musculus with 2 samples.

Results

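Interferon-stimulated genes and the genes that load peptides onto MHC class I were examined in mouse rib chondrocytes, the cells of rib cartilage. The set was chosen by gene name, with no threshold on measured values, although earlier results of these data were known. It holds 44 genes, of which 42 had a probe set assigned to that gene alone, out of 18193 genes measured in all. Isg15 and Ifi44 had none and are not analysed here. The platform was the Mouse Genome 430 2 array of Affymetrix, and the 2 samples came from mice at 5 days of age. The V156D group was the mutant carrying the Matn1 V156D knock-in, and Matn1 encodes matrilin-1, a protein of the cartilage matrix. The wild-type group had the normal genotype. In both groups the cells had been released from dissected ribs with collagenase. Each group is 1 array of RNA from pooled cells, and the design text gives 5 littermates as their source without saying whether that number holds for each genotype. The sources used here give neither strain nor sex. No value below has a replicate error, and no test was possible.

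Interferons are secreted signals that alert cells to infection. Type I and type II interferons bind separate receptors, whose JAK kinases phosphorylate STAT proteins. Complexes that contain STAT2 and IRF9 then bind interferon-stimulated response elements, and STAT dimers bind gamma-activated sites. The target genes encode RNA sensors, antiviral enzymes, immunity-related GTPases, and the peptide transporter and chaperones of MHC class I. Many cells keep a low level of this programme without infection.

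Median intensity was 55.1 in V156D and 54.3 in wild type. Probe sets whose signal, averaged over both arrays in log2, was below that of the median probe set (an intensity of 54.6) are called under the floor. All 16 chondrocyte markers examined, among them Col2a1 and Acan, lay at or above it in both arrays, and their intensities summed to 162170.2 in V156D and 160648 in wild type. Matn1 had 4340 in V156D and 4373 in wild type, and its probe set was not tested for telling the alleles apart. The common leukocyte marker Ptprc lay under the floor, at 10.8 in V156D and 11.1 in wild type. Of the 16 macrophage and monocyte markers examined, 5 lay at or above the floor. In pooled tissue, a change in the number of cells of a type cannot be told apart from a change in RNA per cell. Because log2 ratios scattered least among the weakest signals (SD 0.17 in the weakest of 10 equal bins of probe sets by signal and 0.28 in bin 6), differences at low signal may be compressed in the deposited values.

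The interferon and presentation genes had nearly the same signals in V156D and wild-type chondrocytes. Of the 42 genes, 27 had a mean signal at or above the floor and 15 lay under it. The floor was met by 26 in V156D and by 28 in wild type. Among the 27, 10 were above 0 and 17 below 0 in the log2 ratio of V156D over wild type, with a median of -0.08, beside a median of -0.02 for all 11329 genes at or above the floor, of which 6231 were below 0. Only Irgm1 differed 1.5-fold. The background of genes at least 1.5-fold lower was 2.02%, so 1 of 27 is near it. No member was at least 1.5-fold higher, against a background of 1.7%. None reached 2-fold, where the background was 0.653% higher and 0.256% lower.

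**Figure D1:**
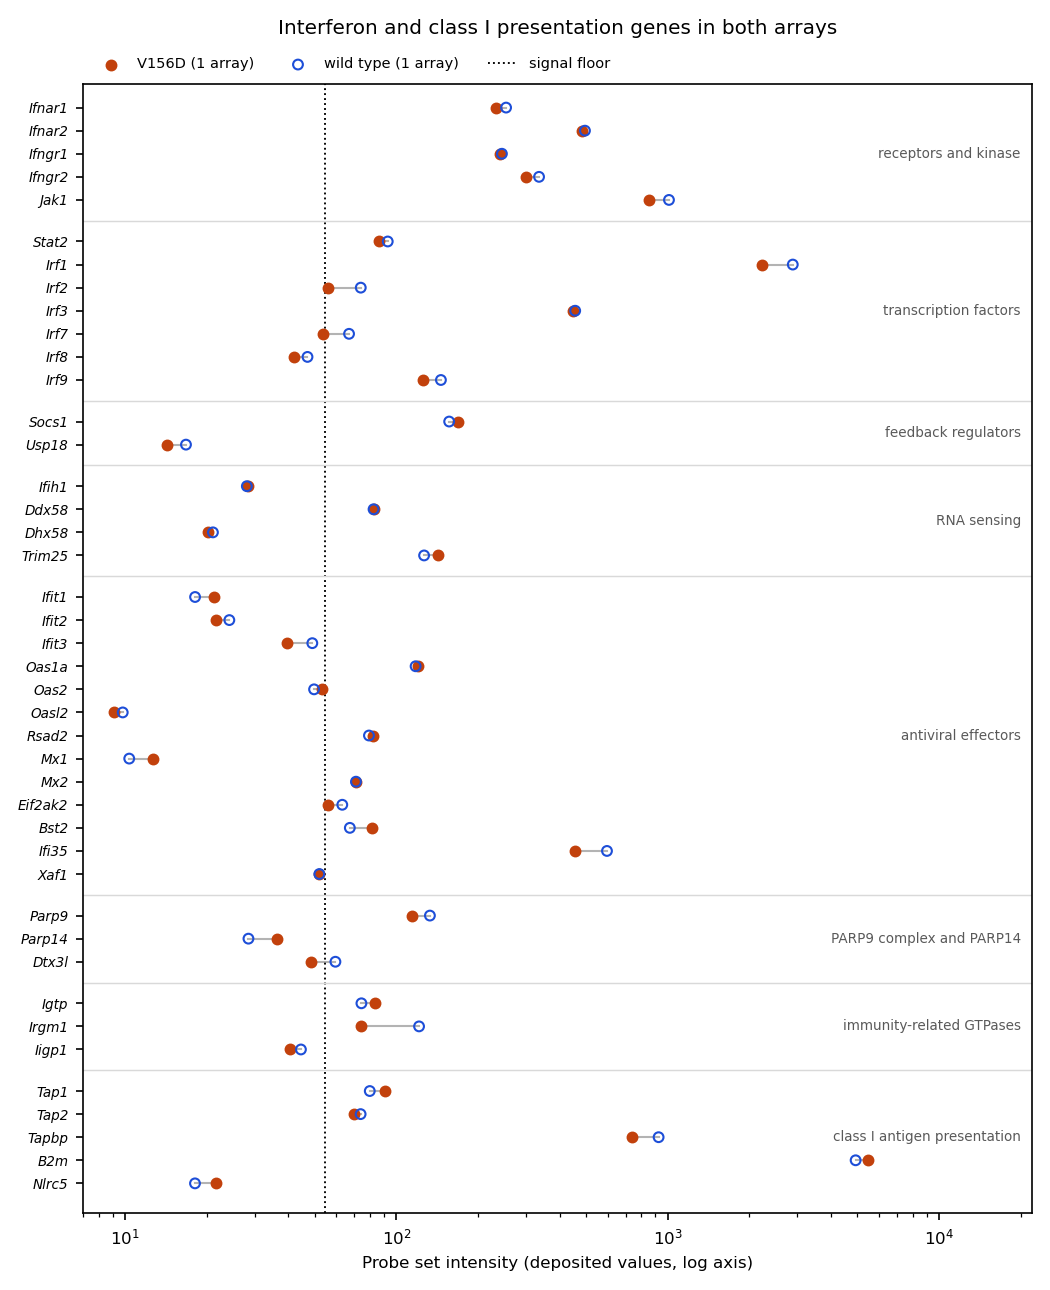
Probe set intensity (log axis) of the 42 measured genes, grouped by role, with filled points for the 1 V156D array and open points for the 1 wild-type array; the dotted line is the signal floor at 54.6. The paired points lie close together, and Irgm1, at 74.1 in V156D and 121 in wild type, has the widest gap in ratio.

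The lowest ratio belonged to Irgm1, an immunity-related GTPase that is induced by interferon gamma and defends cells against intracellular pathogens. Its intensity was 74.1 in V156D and 121 in wild type, 1.64-fold lower, a log2 ratio of -0.71. The central 95% of ratios at or above the floor ran from -0.55 to 0.49, and Irgm1 was the only member at or above the floor outside that range. It rests on 1 probe set, and with an offset of 32 added before log2 its ratio was -0.53, short of 1.5-fold. Of the related GTPases named here, only Igtp (IRGM3) lay at or above the floor, and it did not share this difference. Igtp had 83.2 in V156D and 74.3 in wild type, a log2 ratio of 0.16. Iigp1 (IRGA6), an effector GTPase of the same family, lay under the floor at 40.7 in V156D and 44.5 in wild type. Irgm2, which was not among the 44 genes, was also under the floor, at 25.7 in V156D and 19.5 in wild type. It falls outside the rule for naming other genes, and weak signals limit what it and Iigp1 can show.

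Promoter windows are printed for Irgm1, as the gene with the largest difference, and for 2 of the genes with strong signals, Irf1 and B2m. They are from RefSeq on GRCm38.p6, read 5′ to 3′ on the strand of the gene, from 250 bases before the start site to 50 after it. Capitals mark matches to the interferon-stimulated response element (ISRE, searched on both strands as GAAA, any 2 bases and GAAA, which on the other strand reads TTTC, any 2 bases and TTTC) or to the gamma-activated site (GAS, searched as TTCNNNGAA, which reads the same on both strands). The Irgm1 window is chr11:48871371-48871670 on the minus strand, the Irf1 window chr11:53769764-53770063 on the plus strand, and the B2m window chr2:122147437-122147736 on the plus strand.
Irgm1: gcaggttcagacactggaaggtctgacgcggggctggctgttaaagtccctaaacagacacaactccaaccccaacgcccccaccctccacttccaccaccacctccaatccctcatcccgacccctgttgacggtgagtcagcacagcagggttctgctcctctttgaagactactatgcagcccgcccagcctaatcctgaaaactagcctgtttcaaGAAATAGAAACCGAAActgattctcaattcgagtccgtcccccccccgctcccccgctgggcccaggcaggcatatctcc
Irf1: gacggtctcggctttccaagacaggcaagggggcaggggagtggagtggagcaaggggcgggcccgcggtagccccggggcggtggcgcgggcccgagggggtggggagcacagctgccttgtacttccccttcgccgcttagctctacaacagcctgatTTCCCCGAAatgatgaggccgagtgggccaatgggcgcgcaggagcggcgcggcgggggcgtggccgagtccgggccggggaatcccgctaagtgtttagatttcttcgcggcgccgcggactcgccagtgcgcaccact
B2m: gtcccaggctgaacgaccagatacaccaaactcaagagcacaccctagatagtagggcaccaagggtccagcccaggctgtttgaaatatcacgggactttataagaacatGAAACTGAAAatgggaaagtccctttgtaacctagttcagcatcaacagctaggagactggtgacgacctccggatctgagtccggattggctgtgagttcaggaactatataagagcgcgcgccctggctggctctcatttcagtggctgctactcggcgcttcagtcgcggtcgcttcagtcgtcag
The Irgm1 window holds 2 overlapping ISRE matches, from base -30 to -21 and from -24 to -15 relative to the start site. The Irf1 window has 1 GAS match from -90 to -82 and no ISRE match, and the B2m window has 1 ISRE match from -139 to -130. A second start site of Irf1 in the same table had neither.

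Each interferon response motif, taken alone, was present in a minority of the promoter windows of the set. Of 44 genes, 34 had a promoter window in the RefSeq table. An ISRE match was present in 15 of the 34 (44.1%), against 1079 of 27025 genes with a window (3.99%). A GAS match was present in 11 of the 34 (32.4%), against 2582 genes (9.55%), and 5 members held both, with the matches overlapping only in Bst2. ISRE matches were found in 7 of 12 antiviral effectors and in none of the 5 receptor and kinase genes with a window. Genes carrying the ISRE lay on both sides of 0. Of 11 with a match and a signal at or above the floor, 7 were above 0 and 4 below. Their ratios ran from -0.71 to 0.28, with a median of 0.04. Of 13 without an ISRE match, with a median of -0.16, 2 were above 0 and 11 below. Those 11 include all 5 receptor and kinase genes. For the GAS the medians lay the other way, at -0.12 over 9 genes with a match (3 above 0 and 6 below) and -0.02 over 15 without (6 above 0 and 9 below). Since these genes were chosen for their known response, this describes the set and is no test.

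The ISRE stretches of the other 9 genes with a signal at or above the floor are printed to show the bases within and around each match, whose fixed letters are alike because the search required them, with the ISRE matches in capitals (GRCm38.p6, strand of the gene, 28 bases each).
Stat2: gcaccctggTTTCAGTTTCctttcccta
Irf2: tggggaagtGAAAATGAAAttgactttt
Socs1: ttgccgGAAAGAGAAACCGAAAgcgggg
Ddx58: ctgaggcagTTTCGATTTCctatggcca
Oas1a: tctcggGAAATGGAAACTGAAAatctac
Rsad2: tggtccaacTTTCATTTTCagaaaacag
Eif2ak2: gtccgccggGAAAACGAAAcagaagaga
Bst2: ttccagGAAAATGAAACTGAAAggctgc
Igtp: ctaggaactGAAACTGAAAgctgttcgg
They lie at chr10:128270267-128270294 (Stat2), chr8:46739495-46739522 (Irf2), chr16:10785598-10785625 (Socs1), chr4:40239805-40239832 (Ddx58), chr5:120907524-120907551 (Oas1a), chr12:26456554-26456581 (Rsad2), chr17:78882536-78882563 (Eif2ak2), chr8:71537581-71537608 (Bst2) and chr11:58199513-58199540 (Igtp). Stat2, Irf2 and Igtp are on the plus strand and the others on the minus strand. Socs1, Oas1a and Bst2, like Irgm1, carry a double element, with log2 ratios of 0.10, 0.04 and 0.28, against -0.71 for Irgm1.

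Receptor and kinase genes were all measured above the floor and differed little. Ifnar1 and Ifnar2 encode the chains of the type I interferon receptor. Ifnar1 had 234 in V156D and 254 in wild type, and both of its probe sets were below 0. Ifnar2 had 484 in V156D and 495 in wild type. The type II receptor chains behaved similarly, Ifngr1 with 242 in V156D and 245 in wild type, and Ifngr2 with 299.8 in V156D and 336 in wild type. Jak1, the kinase used by both receptors, had 853 in V156D and 1010.5 in wild type, a log2 ratio of -0.24, and the mean over its 3 probe sets was -0.18 ± 0.06 (SD among probe sets, not samples). All 5 ratios were below 0, from -0.24 to -0.02, but with quantile normalization or loess correction 3 of 5 were, with Ifnar2 and Ifngr1 turning positive.

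Transcription factors of the pathway gave the lowest median of the roles with more than 2 genes at or above the floor, at -0.27. All 6 of these were below 0, from -0.40 to -0.02, and 5 of 6 with quantile normalization or loess correction, where Irf3 turned positive. The 4 lowest each had only a probe set ending in _a_at (Irf1, Irf7 and Irf9) or _s_at (Irf2), which may match several transcripts. Without probe sets ending in _s_at, _x_at or _a_at the median over the 2 factors remaining was -0.11, beside -0.14 over 4 receptor and kinase genes. None differed 1.5-fold. Irf1, a factor induced quickly by interferon gamma and by inflammatory signals, had 2225 in V156D and 2889 in wild type, a log2 ratio of -0.38 that ranged from -0.40 to -0.32 over 5 alternatives. Irf2, an antagonist of IRF1 at many promoters, had 56.0 in V156D and 73.9 in wild type. Irf7, the factor that amplifies type I interferon production, had 53.4 in V156D, under the floor, and 66.9 in wild type. All of these ratios lay within the central 95% of genes at or above the floor.

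Irf9 and Stat2, whose products act together at the ISRE, differed less. Irf9 had 126 in V156D and 146 in wild type, a log2 ratio of -0.21. Stat2 had 85.9 in V156D and 92.9 in wild type, a log2 ratio of -0.11, and its second probe set, under the floor, gave 0.07. Irf3, which is activated by viral RNA sensing and is not itself strongly induced, had 449 in V156D and 456 in wild type, and all 4 of its probe sets were below 0 (mean -0.11, SD among them 0.06). Irf8, a factor of myeloid cells, lay under the floor at 41.9 in V156D and 47.0 in wild type.

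No feedback regulator or RNA sensor differed 1.5-fold. Socs1, an inhibitor of JAK kinases induced by their own signalling, had 168 in V156D and 156.5 in wild type. Usp18, which removes ISG15 from proteins and blocks the type I receptor, was under the floor at 14.3 in V156D and 16.8 in wild type. Its log2 ratio was -0.23. Ddx58 (RIG-I), a sensor of viral RNA, had 82.9 in V156D and 82.4 in wild type, a log2 ratio of 0.01. The related sensors were weak: Ifih1 (MDA5) had 28.3 in V156D and 28.1 in wild type, and Dhx58 (LGP2) had 20.2 in V156D and 21.1 in wild type. Trim25, the ubiquitin ligase that assists RIG-I, had 142 in V156D and 126 in wild type, and its 3 probe sets were all above 0 (mean 0.23, SD among them 0.15). The highest of them, 0.41, was under the floor.

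Antiviral effectors, the genes most widely used as a readout of type I interferon, were mostly weak in both arrays. Of 13 measured, 7 lay under the floor, and the 6 at or above it had a median log2 ratio of 0.02, with 4 above 0 and 2 below (3 and 3 after centring, quantile normalization or loess correction). The IFIT genes, whose proteins bind foreign RNA, were all under the floor. Ifit1 had 21.3 in V156D and 18.1 in wild type, Ifit2 21.7 in V156D and 24.2 in wild type, and Ifit3 39.6 in V156D and 49.0 in wild type. They did not move as a group, with 1 of 3 above 0. The dynamin-like GTPases Mx1 and Mx2 gave 12.7 in V156D and 10.4 in wild type (Mx1), and 71.0 in both arrays (Mx2). Mx1 is under the floor, and most laboratory mouse strains carry defective Mx genes. Xaf1, a pro-apoptotic interferon target, had 52.0 in both arrays.

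The 2′-5′-oligoadenylate synthetase family, which activates the RNA-degrading enzyme RNase L, showed no difference near 1.5-fold. Oas1a had 121 in V156D and 118 in wild type. Oas2 had 53.0 in V156D and 49.7 in wild type, and Oasl2 had 9.1 in V156D and 9.8 in wild type, both under the floor. Rsad2 (viperin), an inhibitor of viral replication, had 81.9 in V156D and 79.2 in wild type, and its 3 probe sets lay between 0.00 and 0.05. Bst2 (tetherin), which holds budding virus at the cell surface, had the highest ratio of the members at or above the floor, with 81.6 in V156D and 67.4 in wild type, a log2 ratio of 0.28. Its value ranged from 0.19 to 0.28 over 6 alternatives.

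Among the remaining effectors, probe sets of a gene disagreed. Eif2ak2 (PKR), the kinase that halts translation on double-stranded RNA, had 56.0 in V156D and 63.2 in wild type, and its 3 probe sets ran from -0.29 to 0.22. Only the brightest of them, at -0.17, lay at or above the floor. Ifi35, an interferon-induced leucine zipper protein, had 454 in V156D and 597 in wild type by its brightest probe set, a log2 ratio of -0.39, but its other probe sets, both at or above the floor, gave -0.12 and 0.03. The -0.12 came from the only one of the 3 whose name does not mark possible matches to other transcripts. For genes with 2 or more probe sets that reached the floor, the ratios of the 2 brightest differed with an SD of 0.26. Of the 8 members of that kind, 6 had probe sets of 1 sign, against 52.5% of 4878 genes.

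Parp9, Dtx3l and Parp14 encode ADP-ribosyltransferases and a ubiquitin ligase that modulate interferon signalling, PARP9 and DTX3L as partners in 1 complex. Parp9 had 114 in V156D and 133 in wild type, a log2 ratio of -0.22. Dtx3l had 48.2 in V156D and 59.6 in wild type by its brightest probe set, a log2 ratio of -0.30, and 0.15 by the other. Both probe sets of Dtx3l had mean signals under the floor. Parp14 had 36.3 in V156D and 28.5 in wild type, the highest ratio of all 42 genes at 0.35, with both probe sets under the floor. By their brightest probe sets the partners Parp9 and Dtx3l were both below 0, but the weak signal of Dtx3l leaves a common direction unsettled.

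**Figure D2:**
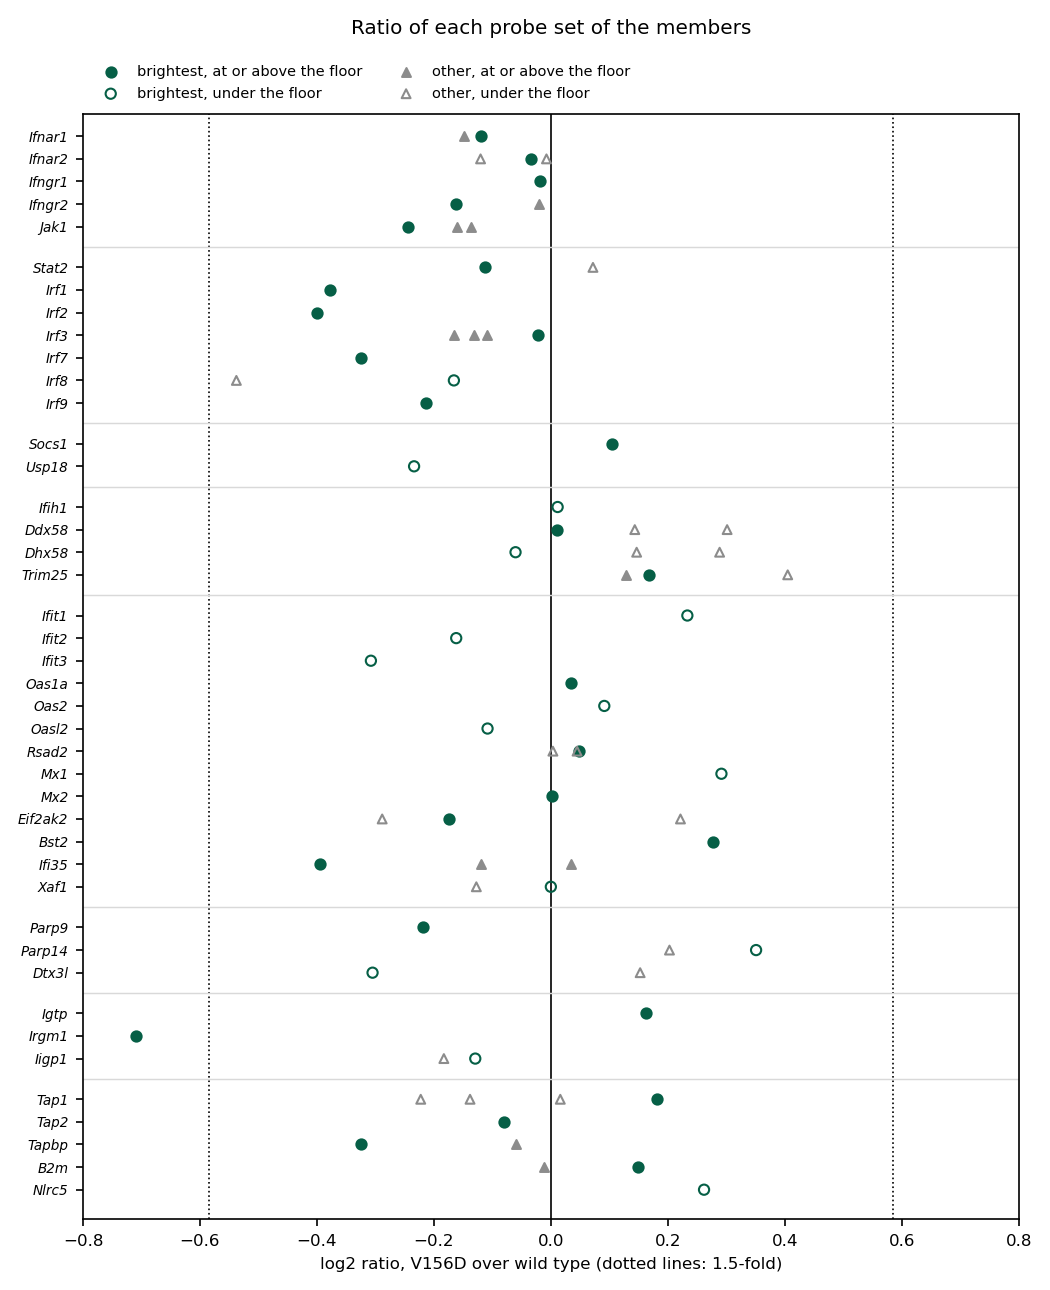
Log2 ratio of V156D over wild type for every probe set of the 42 genes; circles are the brightest probe set of a gene, triangles its other probe sets, filled at or above the floor and open under it, with dotted lines at 1.5-fold. Irgm1 alone lies beyond a dotted line, and the probe sets of Ifi35, Eif2ak2, Dtx3l and Tap1, among others, fall on both sides of 0.

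Genes of class I peptide loading were measured at widely separated signals, and none differed 1.5-fold. B2m, the invariant light chain of MHC class I, had 5459 in V156D and 4925 in wild type, a log2 ratio of 0.15, while its second probe set gave -0.01. Tapbp (tapasin), which bridges class I molecules to the peptide transporter, had 739 in V156D and 925 in wild type, a log2 ratio of -0.32, and -0.06 by its second probe set. The transporter subunits lay closer to the floor, Tap1 with 90.4 in V156D and 79.8 in wild type, and Tap2 with 69.9 in V156D and 73.8 in wild type. The other 3 probe sets of Tap1, all under the floor, ran from -0.22 to 0.02. Nlrc5, the transactivator of class I genes, was under the floor at 21.7 in V156D and 18.1 in wild type.

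Other genes of the pathway, from 6 lists, gave a similar picture with a few lower exceptions. Of 120 genes listed, 97 were measured and 63 lay at or above the floor, with 27 above 0, 36 below 0 and a median of -0.05. None was at least 1.5-fold higher, and 2 were at least 1.5-fold lower, again near the background of 2.02%. Cxcl10, a chemokine that attracts activated T cells and is induced by interferons and by NF-kB, had 3505 in V156D and 6122 in wild type, 1.75-fold lower. Cd74, the invariant chain of MHC class II, had 139.9 in V156D and 212 in wild type, 1.51-fold lower by 1 probe set, and was short of 1.5-fold after quantile normalization, loess correction or an offset.

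Among 24 other interferon-induced genes at or above the floor, 11 were above 0 and 13 below, with a median of -0.03. Cxcl10 was lowest, and Pml, the scaffold of nuclear bodies, was highest at 0.40, with 78.7 in V156D and 59.6 in wild type. The second probe set of Pml gave 0.03, and the mean over its 3 probe sets was 0.16. Below Cxcl10 in size came the chemokine gene Ccl5, with 2084 in V156D and 3056 in wild type, a log2 ratio of -0.55. Cxcl9, a chemokine induced by interferon gamma, had 49.5 in V156D and 72.0 in wild type, a log2 ratio of -0.54, and 0.05 by its second probe set. The restriction factor gene Ifitm3 had 873 in V156D and 712 in wild type, a log2 ratio of 0.29. Ccl5, Cxcl9 and Ifitm3 were chosen after their values were seen.

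H2-D1 and H2-K1, the classical class I heavy chain genes whose products pair with B2m, had lower signals in V156D, while the brightest B2m probe set was higher. H2-D1 had 2357 in V156D and 3474 in wild type, a log2 ratio of -0.56, the lowest of 9 class I presentation genes at or above the floor. Of its 9 probe sets 6 were below 0 and 3 above, and their mean was -0.27. H2-K1, chosen after its values were seen, had 1678 in V156D and 2249 in wild type, a log2 ratio of -0.42, with all 4 probe sets between -0.49 and -0.31. Neither reached 1.5-fold. Mouse class I heavy chain genes are near-identical and differ between strains, so their probe sets may measure each other's transcripts. H2-M3, a class I molecule that presents bacterial peptides, was the highest of this list at 0.25, with 113 in V156D and 95.7 in wild type. The list median over the 9 genes was -0.06.

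In the remaining lists the values stayed within 1.5-fold apart from Cd74. Of 6 class II genes at or above the floor, Cd74 was lowest and H2-DMa, a peptide loading chain, highest at 0.19 by its brightest and -0.21 by its other probe set. Of 11 nucleic acid sensing genes, Cyld, a deubiquitinase that restrains RIG-I and NF-kB signalling, was lowest at -0.45. It had 294 in V156D and 401 in wild type, and its 4 probe sets ran from -0.46 to 0.30 (mean -0.21). Tlr9, a DNA sensor, was highest of the 11 at 0.38. Of 13 other signalling genes, Ptpn2, a phosphatase of JAK and STAT proteins, was lowest at -0.22 and Cish, a SOCS family inhibitor, highest at 0.27. All 7 measured interferon genes, including Ifnb1 and Ifng, had mean signals under the floor. Ifnb1 had 37.2 in V156D and 34.0 in wild type, and Ifng 10.2 in V156D and 9.4 in wild type.

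**Figure D3:**
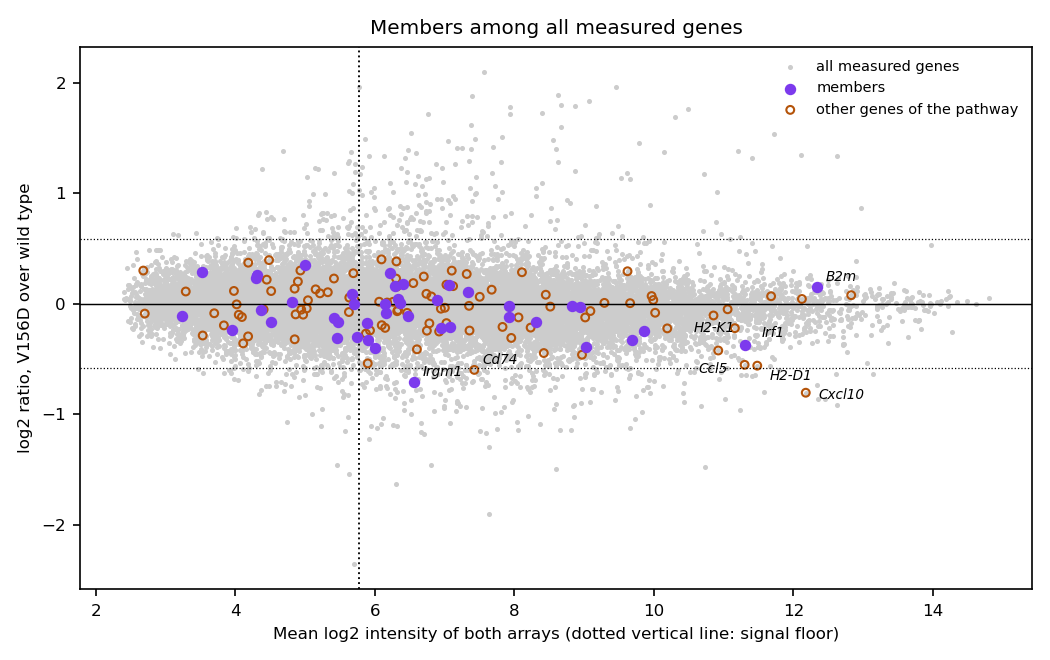
Log2 ratio of V156D over wild type against mean log2 intensity for all 18193 measured genes (grey), the 42 interferon and presentation genes (filled) and 97 other genes of the pathway (open); dotted lines mark the floor and 1.5-fold. Most members lie within the grey band near 0, with Irgm1, Cd74 and Cxcl10 beyond 1.5-fold on the lower side.

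Several groups of cell markers differed between the arrays by more than the interferon and presentation genes as a set, whose median was -0.08. Endothelial markers, whose cells also carry class I and interferon receptors, were above 0 in 7 of 8 genes at or above the floor, with a median of 0.65, and the 12 measured summed to 1399 in V156D and 949.9 in wild type. Fibroblast and perichondrial markers were above 0 in 12 of 14 genes, with a median of 0.64 and summed intensities of 86326 in V156D and 57937 in wild type. Genes of the dissociation and heat shock response were below 0 in 16 of 16, with a median of -0.27 and sums of 135000.3 in V156D and 164077 in wild type. The part of these marker differences in the interferon values was not tested.

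Markers of immune cells were weak. Of 16 macrophage and monocyte markers 5 lay at or above the floor (Cd14, Cd68, Csf1r, Laptm5 and Lyz2). Summed intensities over the 16 were 1857 in V156D and 2150.3 in wild type. Cd14, a coreceptor of TLR4, made up most of that sum, with 1187 in V156D and 1500.4 in wild type. The complement genes C1qa, C1qb and C1qc, the integrin gene Itgam and Adgre1 (F4/80) were under the floor. Of 11 lymphocyte markers measured 4 were at or above it, summing to 441 in V156D and 429 in wild type over the 11. For 6 dendritic cell markers the sums were 599 in V156D and 714 in wild type. Zbtb46, a transcription factor of dendritic cells, made up most of both sums and was the only one of the 3 at or above the floor with a ratio below 0, with 388 in V156D and 515 in wild type. For 9 neutrophil and mast cell markers the sums were 313 in V156D and 330.4 in wild type. Of 3 erythroid markers 1 reached the floor, with sums of 153 in V156D and 135.1 in wild type. No immune list held a gene at or above the floor that differed 1.5-fold.

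**Figure D4:**
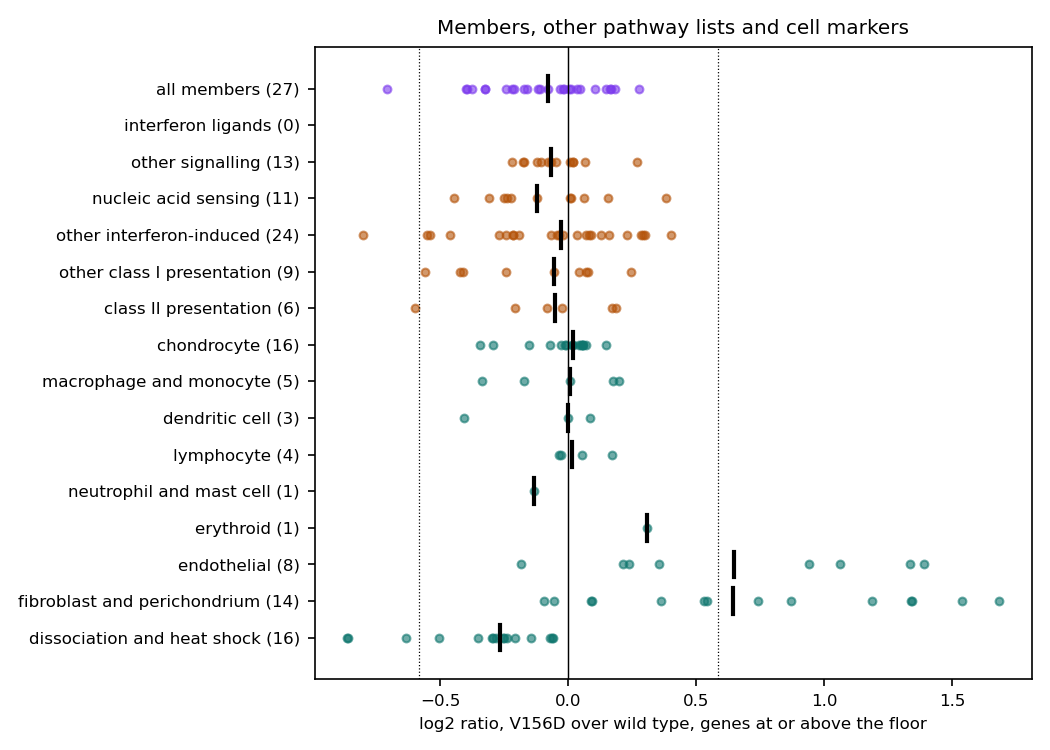
Log2 ratio of V156D over wild type for genes at or above the floor in the interferon and presentation set, the other pathway lists and the cell marker lists (number of genes in brackets); each point is a gene, black bars are medians and dotted lines mark 1.5-fold. The interferon and pathway medians lie between -0.12 and -0.03, whereas the endothelial and fibroblast medians are 0.65 and 0.64 and that of the dissociation genes is -0.27.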

How the data were processed

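The authors deposited a table of linear intensity values covering 45037 probe sets. Per the submitters' processing notes the tool was MAS5; its version, settings, scaling and background correction: not given in the sources used here. Because log2 ratios scattered least at the weakest signals, where MAS5 values usually scatter most, it is uncertain how the deposited values were summarised. Gene symbols came from the GEO annotation of the platform and were checked by Entrez identifier against RefSeq genes of GRCm38.p6. Of the probe sets, 34945 had 1 symbol, 932 had several and 9160 were unnamed here. The log2 of each intensity was taken without further normalization, and the probe set brightest on average in log2 stood for its gene. With 1 array per group, genes were counted past 1.5-fold or 2-fold with no p-value, and the number of arrays limits the precision. Members and lists were chosen with earlier results of these data known. All members were to be named, and of the other pathway lists the genes past 1.5-fold and the highest and lowest at or above the floor. Alternatives were median centring, quantile normalization, loess (span 0.3), an offset of 32, the mean over probe sets, leaving out probe sets ending in _s_at, _x_at or _a_at, a floor at percentile 40, at percentile 60 or absent, and a 3-fold threshold. Counting past 2-fold was tested on simulated data with planted log2 differences of 2 in either direction. Those differences lay well past the threshold, so this checked the counting step and not genes near 2-fold. The count past 1.5-fold was not tested in that way. Python 3.11.15, numpy 2.4.6, pandas 2.3.3 and statsmodels 0.14.6 were used.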

Additional observations from a re-analysis of the deposited data

How the results depend on the processing

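The median log2 ratio over the interferon and presentation genes was -0.08 and stayed between -0.12 and -0.06 under 9 alternatives. The count of members at least 1.5-fold lower, 1 as reported, was 0 with an offset of 32, and it was 1 under the other alternatives run. No alternative gave a member at least 1.5-fold higher or 2-fold different in either direction. Of 42 members, 33 kept the sign of their ratio under the normalizations, the offset and the other choices of probe set. The other 9 did not (Ddx58, Dhx58, Ifih1, Ifnar2, Ifngr1, Irf3, Mx2, Tap1 and Xaf1), although Xaf1, at 0 as reported, had no sign to keep. Without probe sets ending in _s_at, _x_at or _a_at only 31 of the 42 had a value, so the rest were not checked under that choice. For the other pathway genes the alternatives were added after seeing the data. Their count at least 1.5-fold lower, 2 as reported, was 1 with quantile normalization, with loess correction, with the offset of 32 and without probe sets ending in _s_at, _x_at or _a_at, since Cd74 fell short of 1.5-fold in the first 3 and had no other probe set in the last. Leaving out a replicate was not possible with 1 array per group. No paired analysis was possible because each group holds 1 array. Weak signals limit what the 15 genes under the floor can show.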

Other observations

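One probe set is listed for both Isg15, a ubiquitin-like protein that is attached to other proteins after interferon exposure, and Gm9706, and so was left out of the gene values. It had an intensity of 91.7 in V156D and 99.7 in wild type, a log2 ratio of -0.12, at or above the signal floor.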
